A study of Mus musculus with 5 samples.

Results

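CA1 pyramidal neurons are the output neurons of hippocampal field CA1, and they were picked out of 5 paired RNA and chromatin libraries made from nuclei of mouse hippocampus. The members were nuclei with at least 1000 detected genes that passed 3 marker scores. Each gene was expressed as the natural log of 1 plus its UMIs (unique molecular identifiers, each standing for a captured RNA molecule) per 10000 in that nucleus, and was z-scored over all such nuclei. A member had a mean z of at least 1 over Fibcd1, Mpped1, Man1a, Wfs1, Lct and Stac. Its mean z was also below 0.5 over the dentate granule genes Prox1, Glis3 and Stxbp6, and below 0.5 over the inhibitory neuron genes Gad1, Gad2 and Slc32a1. Members were thus chosen by their RNA counts in these same libraries. The rule took in 1455 of 27681 nuclei with at least 1000 detected genes, or 5.26%, out of 28142 nuclei in all. The other scores removed 115 of the 1570 nuclei that reached the CA1 score.

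Each group was 1 library. WT was wild type, and 5xFAD carried human transgenes with familial Alzheimer's disease mutations, which are driven by the Thy1 promoter. The other 3 libraries were labelled as 5xFAD with a knockout of MAGL, the product of Mgll, in astrocytes, in neurons, or globally. MAGL, monoacylglycerol lipase, hydrolyses the endocannabinoid 2-arachidonoylglycerol. All 4 transgenic libraries shared the 5xFAD background, and none was a MAGL knockout on a wild-type background. The labels used here gave neither age, sex and number of mice nor the Cre driver and the deleted exons. With 1 library per group there is no replicate check and no test of any difference between conditions. Every interval below covers counting error only.

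CA1 pyramidal neurons receive entorhinal and CA3 input, send the main output of the hippocampus to the subiculum and cortex, and are among the neurons that are vulnerable early in Alzheimer's disease. Neurons make part of their cholesterol through the mevalonate pathway and take up the rest from lipoproteins. When sterol in the endoplasmic reticulum is low, the transcription factor SREBP2 (gene Srebf2) is released to the nucleus. There it switches on the synthesis enzymes, together with the CCAAT-binding factor NF-Y. Neuronal firing switches on a separate set of immediate early genes within minutes.

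The WT library held 316 members, which was 6.12% of its nuclei (95% Clopper-Pearson interval 5.48 to 6.81). The 5xFAD library held 269, or 5.25% (4.66 to 5.90). The astrocyte, neuron and global MAGL-KO libraries held 290, 214 and 366 members, or 4.80%, 5.34% and 4.98%. The WT share was the highest of the 5 and the astrocyte MAGL-KO share the lowest. In these data a smaller number of CA1 neurons and a lower score per nucleus cannot be told apart.

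CA3-score, dentate-score and subiculum-score nuclei had a mean z of at least 1 over genes of their own class. They also had a mean z below 0.5 over the CA1 rule genes and over the inhibitory neuron genes. Each comparison of levels with them thus sets nuclei picked high on the rule genes against nuclei picked low on them. The label was set against 9 further CA1 genes that the rule did not use, which came from the same nuclei and give a description only. Of these 9, 5 to 7 per library were higher in CA1 members than in both CA3-score and dentate-score nuclei, 2 were lower than in both, and 4 or 5 were also higher than in subiculum-score nuclei. All RNA levels are the UMIs of a gene scaled to a library total of 1000000 (CPM), with the members of a library summed. Spink8, a serine protease inhibitor gene used as a CA1 marker, stood at 24.7 CPM in WT members, 10.4 in CA3-score nuclei, and 4.11 in dentate-score nuclei. Pou3f1, a POU-domain transcription factor gene, stood at 24.9, 1.73 and 2.02 CPM in the same order, and at 13.8 in subiculum-score nuclei. Lct, one of the 6 rule genes, was low in CA1 at 9.7 CPM and higher in dentate-score nuclei at 36.2 CPM, so it did not set CA1 apart. The 2 lower genes in WT were Zbtb20, a transcription factor gene of the whole hippocampus, at 2072 CPM in CA1 against 4205 in CA3-score and 5009 in dentate-score nuclei, and Ntng2, a netrin gene, at 40.3 against 76.3 and 110.0. Zbtb20 made the sum of the 9 lower in CA1 (2756 CPM in WT) than in CA3-score (4440) and dentate-score nuclei (5429). Between 7.06% and 12.1% of the members of a library also reached a subiculum score of 1, the highest share being in the astrocyte MAGL-KO library. Subiculum markers summed to 428 CPM there, against 221 to 305 CPM in the other 4 libraries and 2549 CPM in subiculum-score nuclei of WT. Cortical markers summed to 2371 CPM in CA3-score nuclei of WT, against 391 CPM in WT members.

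**Figure D1:**
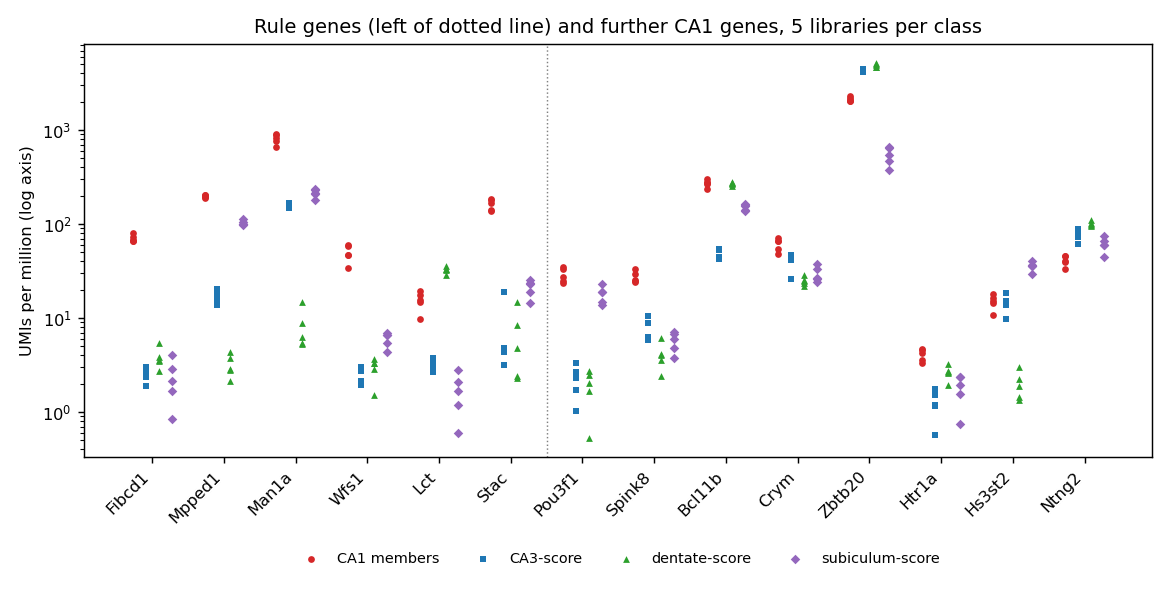
Level of each rule gene (left of the dotted line) and of further CA1 genes (right), in UMIs per 1000000 on a log axis; each class of nuclei has 5 points, one per library. CA1 members stand above CA3-score and dentate-score nuclei for Fibcd1, Mpped1, Pou3f1 and Spink8, while dentate-score nuclei are higher for Lct and Zbtb20.

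The rule itself sets how its 6 genes differ across the threshold, and their values there are a description. The 322 nuclei with a score from 1.0 to 1.1 held Fibcd1 at 54.0 CPM and Stac at 143 CPM, and the 386 nuclei from 0.9 to 1.0, just outside, held 41.9 and 111 CPM. Mpped1 and Man1a were also higher inside, at 200.6 and 730 CPM against 174 and 660. Wfs1 and Lct were lower inside, at 30.7 and 8.21 CPM against 34.9 and 10.3. Among genes the rule did not use, Pou3f1 stood at 30.2 CPM inside and 23.9 outside, and Spink8 at 24.5 and 20.0.

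Members had a median of 17000 to 21496.5 UMIs per nucleus and 4119.5 to 4746.5 detected genes, and summed to 4882787 to 7522402 UMIs per library. RNA of other cells was measured beside them. Oligodendrocyte markers summed to 56.4 to 69.8 CPM in 4 libraries and 115.6 in the global MAGL-KO library. Microglial markers summed to 36.7 to 66.8 CPM and astrocyte markers to 6.57 to 11.3, and no marker of these lists was at 0 in all 5 libraries. Nuclei with Xist UMIs and nuclei with UMIs of 4 Y-linked genes occurred in each library, so each library held nuclei of both sexes. Among members with UMIs of one kind alone, Xist nuclei made up 51.3% in WT, 41.8% in 5xFAD, 58.1% and 83.4% in the astrocyte and neuron MAGL-KO libraries, and 52.6% in the global one. UMIs of both kinds were present in 137 members, 6.21% to 11.5% of a library's members. These were deeper in each library, with a median of 28070.5 to 44859 UMIs against 16676 to 20631 in members with one kind alone. Whether they were doublets was not tested, and they are part of the main sums. Of 27696 distinct barcodes, 442 occurred in more than 1 library, and 0 of them was a member in more than 1. Mgll, the targeted gene, stood at 46.9, 47.7, 71.2, 70.2 and 64.7 CPM in WT, 5xFAD and the astrocyte, neuron and global MAGL-KO libraries. Its UMIs were therefore not lost in any MAGL-KO library, and since the labels give no deleted exon, they check the labels neither way, and the MAGL-KO libraries are called by their labels throughout.

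The first comparison set 5xFAD against WT, which asks what the transgenes change. In CA1 members the genes of cholesterol synthesis were higher in 5xFAD as a group. Of 20 synthesis genes, 16 reached 100 UMIs over both libraries, and 16 of these 16 were higher by at least 0.5 on the log2 scale, with 0 lower. Over the whole transcriptome of these nuclei the same fold took in 0.816% of 8828 genes upward and 1.19% downward. A ratio is log2 of the CPM values after adding 5 CPM to each, which understates the change of low genes. The median log2 ratio of the 16 genes was 0.97, beside 0.004 over all genes. The list was added after values of these genes had been seen.

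For the genes on which this result turns, 250 bases before the RefSeq start site (GRCm38.p6) are shown, to let the reader see the NF-Y motif in them. Capitals mark CCAAT on either strand (read as CCAAT or ATTGG) and, in Hmgcs1, the sterol element TCACNCCAC, which does not overlap a CCAAT there. Hmgcs1, 3-hydroxy-3-methylglutaryl-CoA synthase, lies on the plus strand of chr13:119690101-119690350. Msmo1, which removes the methyl groups at carbon 4 of sterols, lies on the minus strand of chr8:64733579-64733828. Nsdhl, which acts at the same step, lies on the plus strand of chrX:72918271-72918520. Insig1, which holds the SREBP complex in the endoplasmic reticulum, lies on the plus strand of chr5:28071162-28071411. Fdps, Fdft1 and Sqle had no entry.
Hmgcs1: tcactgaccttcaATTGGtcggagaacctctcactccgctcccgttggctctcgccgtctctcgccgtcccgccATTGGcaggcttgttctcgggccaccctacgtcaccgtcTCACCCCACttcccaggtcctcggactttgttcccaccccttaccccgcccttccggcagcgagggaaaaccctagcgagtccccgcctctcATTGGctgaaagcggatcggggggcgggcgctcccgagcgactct
Msmo1: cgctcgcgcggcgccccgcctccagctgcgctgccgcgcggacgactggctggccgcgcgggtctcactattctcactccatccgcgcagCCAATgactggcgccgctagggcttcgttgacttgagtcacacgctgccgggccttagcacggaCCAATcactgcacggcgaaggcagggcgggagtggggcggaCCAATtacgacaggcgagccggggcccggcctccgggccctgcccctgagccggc
Nsdhl: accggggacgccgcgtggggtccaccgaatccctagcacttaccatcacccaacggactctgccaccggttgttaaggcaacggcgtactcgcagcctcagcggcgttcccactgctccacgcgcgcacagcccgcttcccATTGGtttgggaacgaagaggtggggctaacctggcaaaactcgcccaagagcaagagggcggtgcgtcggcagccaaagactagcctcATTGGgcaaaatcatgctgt
Insig1: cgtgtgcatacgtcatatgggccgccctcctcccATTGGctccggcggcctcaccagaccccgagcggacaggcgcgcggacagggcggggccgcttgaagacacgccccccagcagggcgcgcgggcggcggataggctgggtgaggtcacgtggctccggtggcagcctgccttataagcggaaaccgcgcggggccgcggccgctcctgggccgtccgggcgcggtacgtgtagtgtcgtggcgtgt

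Hmgcs1 and Msmo1 each held 3 CCAAT motifs in this window, Nsdhl held 2 and Insig1 held 1. Across the synthesis genes with an entry, 14 of 15 held at least 1 CCAAT, or 93.3%. Counted in the same way, by genes with the motif in any promoter, the share was 37.5% over all 27025 genes of the table and 40.0% over the 6841 genes with at least 100 UMIs in CA1 members. Counted by promoter it was 33.8% of 32851. TCACNCCAC was found in 1 of the 15, or 6.67%, against 1.22% of all genes. These matches describe letters and were not measured as bound sites.

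In the early steps of the pathway, Hmgcs1 stood at 19.0 CPM in WT members and 69.7 in 5xFAD, with 59.4, 48.7 and 57.3 in the astrocyte, neuron and global MAGL-KO libraries. WT was the lowest of the 5, and the other 4 ran from 48.7 to 69.7 CPM. The log2 ratio of 5xFAD to WT was 1.64 (1.32 to 1.95, from the ends of the exact 95% Poisson intervals). Idi1, isopentenyl-diphosphate isomerase, stood at 4.25 CPM in WT and 13.6 in 5xFAD, and Acat2, a cytosolic thiolase, at 8.11 and 26.2.

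In the squalene and post-squalene steps, Fdft1, which joins 2 farnesyl units to squalene, stood at 21.5, 58.9, 58.7, 49.8 and 57.6 CPM in the same order of libraries. Sqle, squalene epoxidase, stood at 9.04, 33.6, 44.2, 37.3 and 34.4 CPM, so its highest value was in the astrocyte MAGL-KO library and not in 5xFAD. Msmo1 stood at 26.7, 90.1, 78.1, 73.3 and 59.6 CPM, a ratio of 5xFAD to WT of 1.58 (1.30 to 1.87). Both were lowest in WT by a wide margin. Cyp51, lanosterol demethylase, stood at 27.0 CPM in WT and 56.2 in 5xFAD. Nsdhl stood at 9.31 and 32.0 CPM. The 4 synthesis genes under 100 UMIs were Mvd (1.86 CPM in WT and 8.67 in 5xFAD), Mvk (1.99 and 4.57), Tm7sf2 (3.85 and 8.04) and Ebp (4.39 and 4.73). Counting all 20 genes whatever their depth, each was lowest in WT among the 5 libraries, though the counting intervals of WT and 5xFAD overlapped for Mvk and Ebp.

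**Figure D2:**
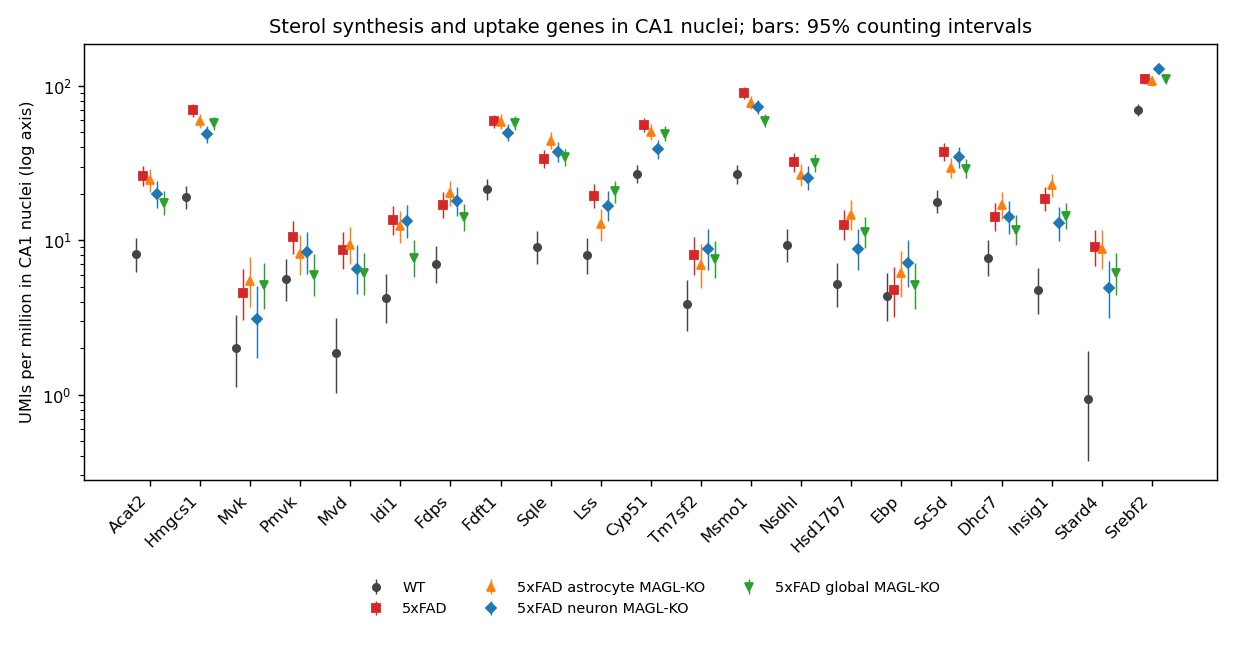
Level of cholesterol genes in CA1 members, in UMIs per 1000000 on a log axis, for the 5 libraries, with bars giving the exact 95% Poisson interval (counting error only). WT is the lowest library for the synthesis genes drawn, and the 4 libraries that carry 5xFAD lie above it. The intervals of WT and 5xFAD overlap for Mvk and Ebp, and for some other genes, such as Pmvk, that of WT overlaps those of MAGL-KO libraries.

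The difference in Hmgcs1 was spread over many nuclei. With each nucleus thinned to 5000 UMIs, 8.47% of 307 WT members held an Hmgcs1 UMI (5.61 to 12.2) and 24.7% of 263 members of 5xFAD (19.6 to 30.4). Without thinning the shares were 28.5% and 65.1%. In CA3-score nuclei, at the same thinned depth, they were 14.2% and 21.4%, and in dentate-score nuclei 2.29% and 1.69%.

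Among genes of sterol sensing and uptake, Insig1 stood at 4.79 CPM in WT and 18.6 in 5xFAD, and Srebf2 itself at 69.7 and 111. Stard4, a cytosolic sterol carrier with under 100 UMIs, stood at 0.931 and 8.98 CPM. Insig1 and Srebf2 were past the fold, with ratios of 1.27 and 0.64. Lipoprotein receptor genes Lrp1, Vldlr and Lrp8 were near no difference: the ratio was 0.04 for Lrp1, -0.04 for Vldlr and 0.21 for Lrp8. Export and turnover genes had a median of 0.09 over 6 genes. Abca1, the sterol efflux pump, was at -0.00 and Cyp46a1, which converts cholesterol to 24-hydroxycholesterol in neurons, at 0.12. Apoe was the 1 export gene past the fold, at 12.1 CPM in WT and 26.9 in 5xFAD. Apoe is abundant in astrocytes and microglia, whose markers summed to 6.91 and 42.4 CPM in WT members and to 11.0 and 51.8 in 5xFAD, and their part in the Apoe value was not tested. Of 8 fatty acid synthesis genes, 3 were past the fold and 0 were lower, with a median of 0.44, where 0.816% of all genes were higher and 1.19% lower. These were Acly, ATP citrate lyase (11.2 and 21.9 CPM), Acaca, acetyl-CoA carboxylase (138 and 209), and Fads2, a desaturase (7.18 and 18.1).

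Summed over the 20 synthesis genes, CA1 members held 258.6 CPM in WT (247.2 to 270.3) and 650.6 in 5xFAD (630.9 to 670.8). They held 608.5, 553.0 and 551.5 CPM in the astrocyte, neuron and global MAGL-KO libraries. CA3-score nuclei held 304.9 CPM in WT and 451.6 in 5xFAD. Dentate-score nuclei held 135.5 and 148.8, and subiculum-score nuclei 379.2 and 442.2. The median log2 ratio of the list was 0.44 in CA3-score, 0.08 in dentate-score and 0.21 in subiculum-score nuclei. The ratio in CA1 lay above that in CA3-score nuclei for 19 of 20 genes, and above those in dentate-score and subiculum-score nuclei for 20 of 20. This difference between classes has no replicate check and was not tested. Oligodendrocyte-score nuclei, which make much of the cholesterol of myelin, held 453.7 CPM in WT and 446.1 in 5xFAD. Oligodendrocyte markers in CA1 members summed to 64.2 CPM in WT and 63.0 in 5xFAD.

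**Figure D3:**
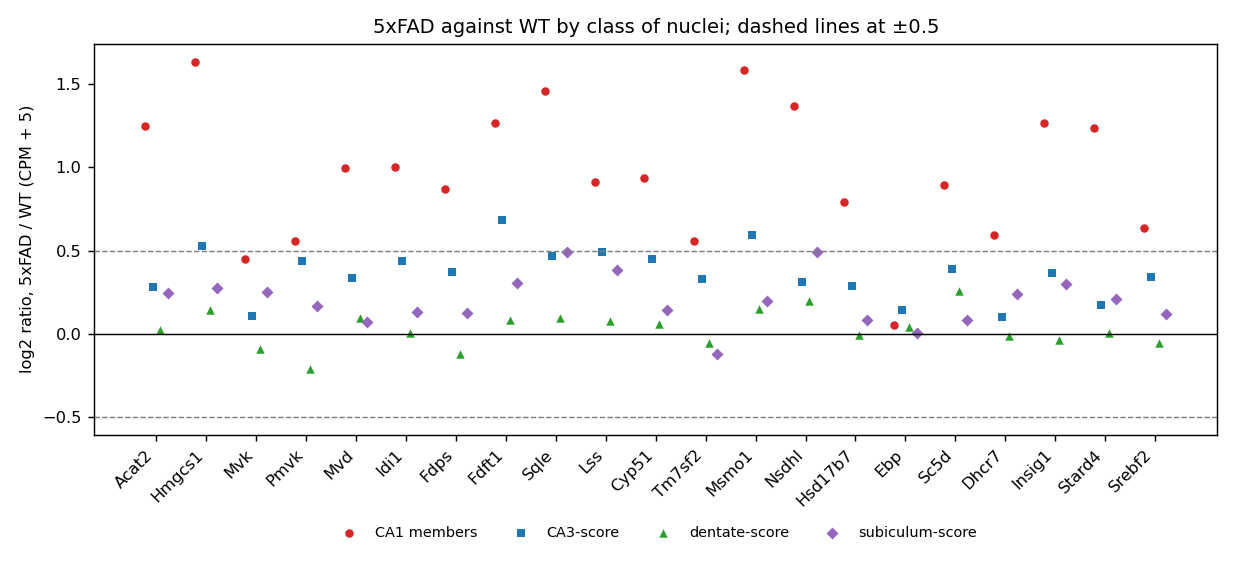
Log2 ratio of 5xFAD to WT (after adding 5 CPM) for synthesis genes and for Insig1, Stard4 and Srebf2, in 4 classes of nuclei; dashed lines mark 0.5 in either direction. The CA1 points lie above the other classes for each gene except Ebp, where all lie near 0.

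The higher level was found in each subdivision of the members that was looked at. In Xist nuclei the list summed to 221.4 CPM in WT and 626.9 in 5xFAD, and in Y nuclei to 310.9 and 682.0. Members deeper than their library's median held 243.0 and 635.9 CPM, and shallower ones 291.3 and 678.8. Members with a CA1 score under 1.2 held 257.5 and 653.6 CPM, and those at or above it 259.6 and 647.3. Without members that reached a subiculum score of 1 the sums were 253.6 and 647.9 CPM. At 5000 UMIs per nucleus the median member held 1 UMI of these genes in WT and 3 in 5xFAD. The share with 3 or more was 15.0% in WT and 58.6% in 5xFAD (77.2% and 95.9% unthinned), and 50.0%, 44.1% and 43.0% in the astrocyte, neuron and global MAGL-KO libraries. The higher level was thus spread over many nuclei.

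The sexes differed within libraries, in unlike directions. In the astrocyte and neuron MAGL-KO libraries Xist nuclei summed to 744.4 and 591.0 CPM. Y nuclei there summed to 419.0 and 400.5, the last from only 32 nuclei. In the global one they were 508.5 and 606.2 CPM, the other way round. WT, at 221.4 and 310.9 CPM, and 5xFAD, at 626.9 and 682.0, were also lower in Xist nuclei. The number of mice behind each sex is not given, and these differences were not tested.

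Against 5xFAD the 3 MAGL-KO libraries, which share that 5xFAD library as their reference, held slightly less of the list over all members. By sex this differed. In the astrocyte library Xist nuclei held more than those of 5xFAD (744.4 and 626.9 CPM), and Y nuclei less (419.0 and 682.0). In the neuron library the sums were 591.0 CPM in Xist and 400.5 in Y nuclei. Xist nuclei were 58.1% and 83.4% of sexed members in these libraries and 41.8% in 5xFAD, and the part of this make-up was not tested. The median ratios over all members were -0.10, -0.19 and -0.20 for astrocyte, neuron and global MAGL-KO, or -0.18, -0.26 and -0.22 with size factors. In the astrocyte comparison 0 of 17 synthesis genes with 100 UMIs passed the fold, where 7.39% of 8717 genes were higher and 0.837% lower. In the neuron comparison 0 of 16 passed, where 7.97% of 8445 genes were higher and 1.02% lower. In the global comparison 0 of 17 were higher and 2 lower, Msmo1 (-0.56) and Idi1 (-0.55), where 1.66% of 8745 genes were higher and 0.595% lower. Set against WT instead, the medians were 0.95, 0.94 and 0.77. Of the 20 genes, 11 were higher in 5xFAD than in each of the MAGL-KO libraries.

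Chromatin was measured in the same nuclei as transposase cut sites, scaled like the UMIs to 1000000 per library, over peaks that cover a gene's start. Over start sites 1.35% of 11737 coding genes were higher and 1.14% lower by the same fold. Of the 20 synthesis genes 0 passed the fold in either direction, with a median of 0.09 beside 0.004 for all genes. Hmgcs1 held 61.3 cut sites per 1000000 in WT and 51.5 in 5xFAD, and Msmo1 57.0 and 60.5. The start sites of these enzymes were thus open in WT members as well, and their RNA and accessibility differed by unlike amounts.

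Thy1 encodes a neuronal surface glycoprotein, and its promoter also drives the transgenes. It stood at 46.9 CPM in WT members, 323 in 5xFAD, and 289, 430 and 290 in the astrocyte, neuron and global MAGL-KO libraries. The ratio of 5xFAD to WT was 2.66 (2.46 to 2.86) in CA1, 0.97 in CA3-score, 1.95 in dentate-score and 1.59 in subiculum-score nuclei. At 5000 UMIs 17.6% of WT members and 77.9% of 5xFAD members held a Thy1 UMI (61.7% and 97.4% unthinned), beside 14.6% and 28.2% of CA3-score nuclei. The peak over its start, on chr9:44042860-44043763, held 18.2 cut sites per 1000000 in WT and 591, 603, 587 and 517 in the others, a ratio of 4.68 (4.42 to 4.94). In CA3-score nuclei the ratio was 2.40 and in dentate-score nuclei 3.76. The endogenous gene and copies of its promoter in the transgene cannot be told apart in these counts. App, counted against the mouse gene, stood at 545 CPM in WT and 619 in 5xFAD (0.18). Of the 8 amyloid and transgene genes, 1 was past the fold, Thy1, and the median was 0.13.

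Of the immediate early genes, which mark recent neuronal activity, the orphan nuclear receptor genes Nr4a1, Nr4a2 and Nr4a3 were lower in CA1 of 5xFAD. They were 3 of the 9 with at least 100 UMIs, where 1.19% of all genes were lower, and 0 of the 9 were higher. The median of the 9 was -0.41. Nr4a2 stood at 74.4, 35.9, 28.7, 22.7 and 34.3 CPM in WT, 5xFAD and the astrocyte, neuron and global MAGL-KO libraries, a ratio of -0.96 (-1.24 to -0.68). Nr4a3 stood at 107, 60.0, 36.5, 39.3 and 58.4 CPM, and Nr4a1 at 63.3, 43.0, 43.0, 30.5 and 46.7. For these receptors WT was above each of the other 4 libraries. In CA3-score nuclei the ratio was -0.12 for Nr4a2 and -0.04 for Nr4a3. With nuclei thinned as for Hmgcs1, 28.3% of WT members and 16.3% of 5xFAD members held an Nr4a3 UMI. The shares were 30.5% and 35.5% in CA3-score nuclei, and 4.59% and 1.57% in dentate-score nuclei. The Nr4a3 share was thus lower in 5xFAD in dentate-score nuclei as well, where 40 and 13 nuclei held a UMI.

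Fos stood at 4.12 CPM in WT and 3.15 in 5xFAD, Arc at 26.4 and 21.9, Npas4 at 21.1 and 16.2, and Egr3 at 15.0 and 15.3. Homer1, whose short form is induced by activity and whose counts here cover all its forms, stood at 823, 619, 353, 485 and 579 CPM. In CA3-score nuclei Homer1 went the other way, from 476 CPM in WT to 629 in 5xFAD. Of 12 immediate early genes, 11 were highest in WT, Egr3 being the exception. No share of all genes highest in WT was computed, so this count is a description. Among those with at least 100 UMIs, only Nr4a1, Nr4a2 and Nr4a3 differed between 5xFAD and WT by the fold. Summed over the list, CA1 members held 1190, 854, 523, 655 and 807 CPM, and CA3-score nuclei 708, 869, 476, 476 and 640. WT was the highest library in CA1 and 5xFAD in CA3-score nuclei. Subiculum-score nuclei went the same way as CA1, from 780.5 CPM in WT to 675 in 5xFAD, and dentate-score nuclei from 216.5 to 195. The median ratio was 0.12 in CA3-score, -0.30 in subiculum-score and -0.08 in dentate-score nuclei. The ratio of 5xFAD to WT was above that of CA1 in CA3-score nuclei for 12 of 12 genes, while the CA1 ratio was above that of dentate-score nuclei for 3 genes and that of subiculum-score nuclei for 4. These differences between classes were not tested. The median for 5xFAD against WT was -0.14 in Xist nuclei and -0.53 in Y nuclei of CA1, so most of the difference lay in Y nuclei.

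**Figure D4:**
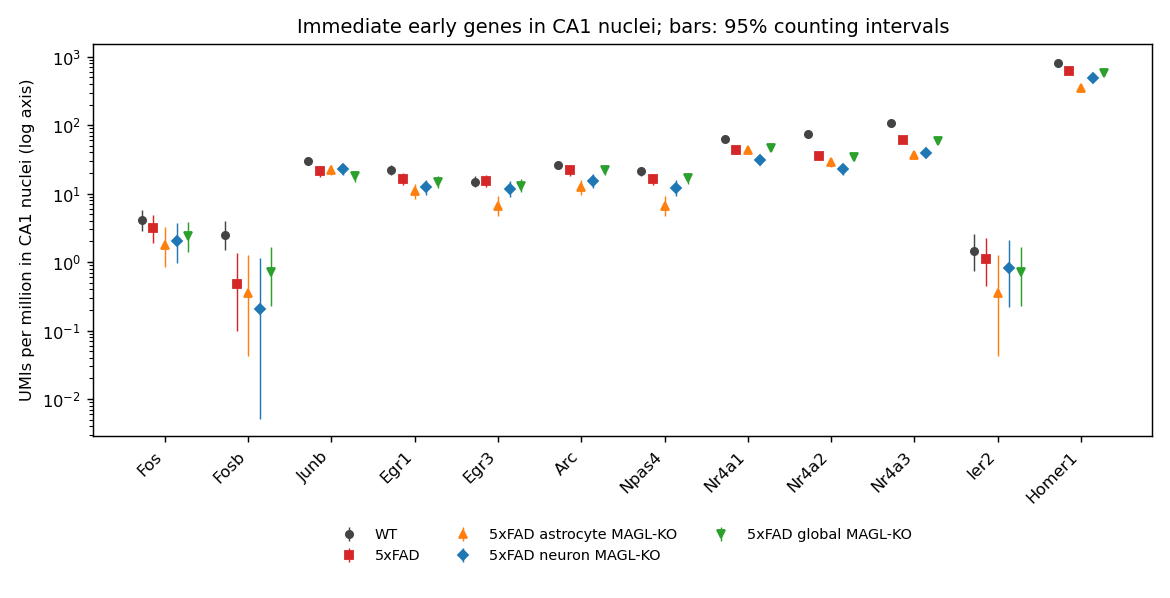
Level of each of 12 immediate early genes in CA1 members, in UMIs per 1000000 on a log axis, for the 5 libraries, with exact 95% Poisson intervals (counting error only). WT is the highest library for each gene except Egr3, and the astrocyte MAGL-KO library has the lowest Homer1 level, 353 CPM.

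The start sites went the same way in part. The peak over the start of Nr4a1 held 74.6 cut sites per 1000000 in WT and 46.7 in 5xFAD, with 51.0, 49.5 and 56.3 in the astrocyte, neuron and global MAGL-KO libraries. Its ratio was -0.62 (-0.92 to -0.33), against 0.13 in CA3-score nuclei. Nr4a1 was the 1 of 12 past the fold, beside 1.14% of all start sites that were lower, and the median was -0.08 with 5 of 12 above 0. Fos stood at 31.7 and 22.8 cut sites per 1000000 in WT and 5xFAD (-0.40), Nr4a2 at 36.1 and 27.0 (-0.36), and Nr4a3 at 45.1 and 35.6 (-0.30). Fosb went the other way at 30.0 and 36.4 (0.24), as did Npas4 at 41.2 and 45.4 (0.13).

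Against 5xFAD the astrocyte MAGL-KO library held less of 5 immediate early genes. Its median was -0.63, with 0 of 9 higher and 5 lower (0.837% of all genes were lower), namely Egr3 (-0.79), Arc (-0.63), Npas4 (-0.86), Nr4a3 (-0.65) and Homer1 (-0.80). The neuron MAGL-KO library had a median of -0.35 with 2 lower (1.02% of all genes), Nr4a2 (-0.56) and Nr4a3 (-0.55), and the global one a median of -0.06 with 0 past the fold. CA3-score nuclei had medians of -0.62, -0.62 and -0.44, and dentate-score nuclei 0.15, 0.02 and 0.02. The lower level in the astrocyte and neuron comparisons was therefore present in CA3-score nuclei as well.

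Of 8 later activity-regulated genes, 4 were higher and 1 lower in the neuron MAGL-KO library, where 7.97% of all genes were higher and 1.02% lower. The median of the 8 was 0.62 over all members, 0.64 in Xist nuclei and 0.19 in Y nuclei. Inhba, an activin subunit, stood at 20.3, 22.9, 29.8, 48.7 and 27.3 CPM. Sorcs3, a sorting receptor, stood at 620, 532, 654, 1043 and 722 CPM, and Penk, the proenkephalin gene, at 9.57, 12.4, 15.5, 29.1 and 12.9. Nptx2, a pentraxin that clusters AMPA receptors, stood at 9.97, 10.6, 11.8, 21.3 and 10.9 CPM. Each of these 4 was highest in the neuron MAGL-KO library. Pcsk1, a prohormone convertase, went the other way at 32.5 CPM in 5xFAD and 13.9 there. The 4 were higher there in dentate-score nuclei as well, by 0.97 for Inhba, 2.13 for Sorcs3, 1.86 for Penk and 1.5 for Nptx2. Within CA1 the ratio for Nptx2 was 0.89 in Xist nuclei and -0.75 in Y nuclei. That library held only 32 Y nuclei, so few UMIs lie behind its values in Y nuclei. Xist nuclei were 83.4% of sexed members in that library against 41.8% in 5xFAD. The part of this difference in make-up was not tested. In the astrocyte and global comparisons 0 of 8 passed the fold. Bdnf stood at 68.9, 47.7, 42.5, 60.8 and 59.2 CPM.

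Among the other genes lowest in 5xFAD against WT by the rule of size were Itgbl1, an integrin-like secreted protein gene (46.4 and 24.3 CPM, -0.81), Fosl2, an AP-1 subunit gene (15.8 and 7.41, -0.75), and the cyclin gene Ccnd2 (40.7 and 21.7, -0.77). Npy had the lowest ratio, -1.28, at 13.7 CPM in WT and 2.68 in 5xFAD, and 67.0% of its WT UMIs came from 1 nucleus. Angpt1, at 17.4 and 8.51 CPM, changed sign with the score threshold. Synaptic receptor, scaffold and channel lists were near no difference in 5xFAD, with medians from -0.11 to 0.01 and 0 genes higher. Camk2d (-0.55), Rasgrf2 (-0.57, 23.9 and 14.5 CPM) and Lrrtm3 (-0.56) were the genes of these lists past the fold, all lower. They were 3 of 142 genes with 100 UMIs in 9 lists, or 2.11%, beside 1.19% of all genes.

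The comparisons of the MAGL-KO libraries with 5xFAD called many more genes higher than lower. In the astrocyte comparison 644 were higher and 73 lower, in the neuron comparison 673 and 86, and in the global one 145 and 52. Scaling mattered to that split. The median of all genes was 0.104 and 0.089 in the astrocyte and neuron comparisons, and with median-of-ratios size factors it was 0.012 and 0.005, with 378 higher and 128 lower genes in the first and 446 and 166 in the second. The share of called genes that were higher went from 89.8% to 74.7% and from 88.7% to 72.9%. Values of ratios below should be read against those medians.

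Dnah6, an axonemal dynein heavy chain gene, had the lowest ratio in all 3 comparisons. It stood at 39.6 CPM in WT members and 24.3 in 5xFAD, and at 3.35, 1.64 and 1.57 in the astrocyte, neuron and global MAGL-KO libraries. The ratios to 5xFAD were -1.81, -2.14 and -2.16 (the last -2.53 to -1.71). At 5000 UMIs it was found in 13.7% and 11.0% of WT and 5xFAD members (44.3% and 32.3% unthinned). The other 3 libraries had 0.709%, 0.495% and 1.14% (4.48%, 2.80% and 1.91% unthinned). In CA3-score nuclei it was found in 1.63% in WT and 0.855% in 5xFAD (6.40% and 5.86% unthinned). The MAGL-KO libraries had 0%, 0% and 0.250% in that class (1.25%, 2.29% and 0.973% unthinned). Its share was thus lower in the MAGL-KO libraries in CA3-score nuclei as well, from few UMIs. Cfap54, a cilia and flagella protein gene, stood at 143, 121, 34.4, 38.5 and 45.3 CPM, and Dach1, a transcriptional cofactor gene, at 148, 163, 67.3, 74.1 and 92.2. For both, WT and 5xFAD lay together above the other 3. In CA3-score nuclei Cfap54 was likewise lower in the astrocyte comparison, by -1.38. Dach1 was not, with 0.70 there.

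Accessibility at the start of Dnah6 and Cfap54 differed less than their RNA. The peak of Dnah6 held 26.5, 30.2, 28.1, 28.1 and 22.3 cut sites per 1000000 in the 5 libraries, and that of Cfap54 18.1, 20.0, 18.3, 16.1 and 10.8. The value for Cfap54 in the global MAGL-KO library was lower than in 5xFAD by more than the fold, with a ratio of -0.66 (-1.14 to -0.17), and the other 5 ratios of these genes to 5xFAD lay within it.

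**Figure D5:**
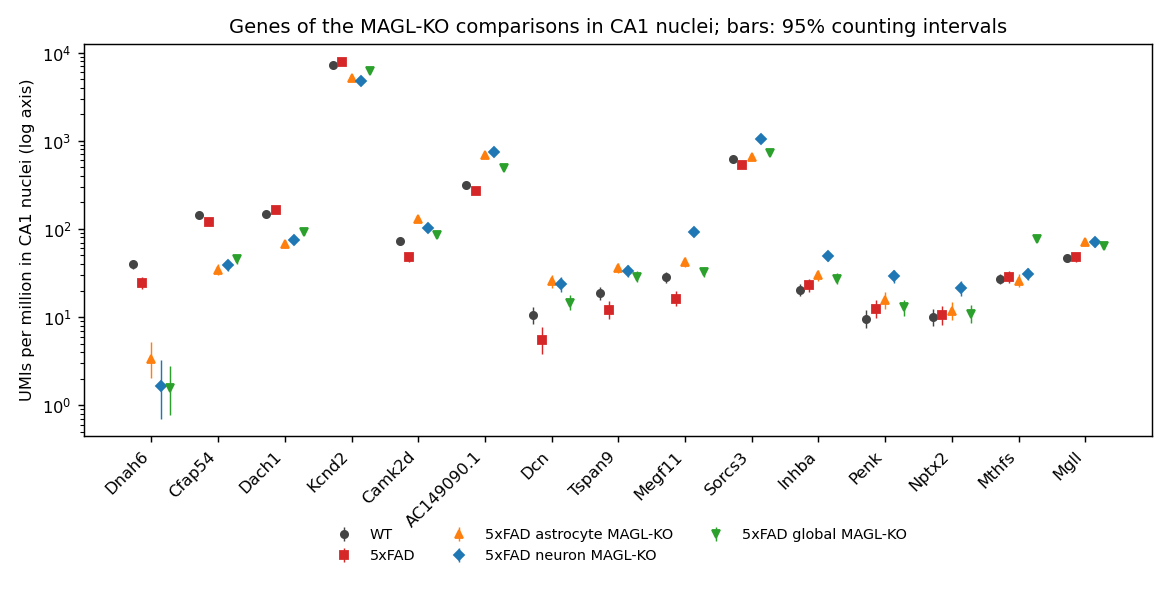
Level in CA1 members, in UMIs per 1000000 on a log axis with exact 95% Poisson intervals, of 15 genes of the MAGL-KO comparisons in the 5 libraries. Dnah6, Cfap54 and Dach1 are lower in all 3 MAGL-KO libraries than in WT and 5xFAD, Megf11, Sorcs3, Inhba, Penk and Nptx2 are highest in the neuron MAGL-KO library, Mthfs in the global one, and Mgll is lower in none of the 3.

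Higher in the astrocyte MAGL-KO library was Camk2d, a subunit of the calcium and calmodulin-dependent kinase II. It stood at 72.2, 47.7, 128, 102 and 86.2 CPM, a ratio to 5xFAD of 1.34 (1.09 to 1.59), and -0.35 in CA3-score nuclei. Leaving out members that also reached a CA3 or subiculum score of 1 took it to 0.69. Cdc14a, a phosphatase gene, stood at 6.93 CPM in 5xFAD and 30.9 in that library, and went from 1.59 to 0.58 under the same restriction. Of 4 subiculum markers with 100 UMIs, Tshz2 (141 and 289 CPM) and Vwc2l (46.0 and 108) were also higher there, while Fn1 (20.2 and 18.5) and Slc17a6 (11.0 and 8.46) were not, and their part in these ratios was measured only by that restriction. Hmcn1, a matrix protein gene, stood at 3.94 CPM in 5xFAD, 25.0 in the astrocyte and 18.7 in the global one, and between 31.7% and 50% of its UMIs in these 2 came from 1 nucleus. Tspan9, a tetraspanin gene, was more even, at 18.6, 12.1, 36.1, 33.4 and 28.9 CPM over the 5 libraries. The unplaced-contig gene AC149090.1 stood at 318, 267, 694, 747 and 490 CPM, and was higher by 1.41 in CA3-score nuclei in the astrocyte comparison.

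In the neuron MAGL-KO library, Megf11, which encodes a cell surface protein with EGF-like repeats, had the highest ratio. It stood at 28.2, 16.2, 42.0, 93.4 and 32.9 CPM, a ratio of 2.21 (1.87 to 2.56), with 1.85 in CA3-score and 1.59 in dentate-score nuclei. With a CA1 score of at least 1.5 the ratio was 0.20, so it rested on members of lower score. Fbln2, a matrix protein gene, stood at 8.51 CPM in 5xFAD and 29.7 there, and Nnat, an imprinted proteolipid gene, at 51.7 and 124. Lower there were Mertk, a phagocytic receptor kinase gene (17.0 and 6.76 CPM), and Htr1f, a serotonin receptor gene (241 and 138). Mertk was also lower in the global comparison, by -1.14.

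In the global MAGL-KO library, Mthfs, a folate enzyme gene, stood at 77.5 CPM against 25.9 to 30.9 in the other 4 libraries. Its ratio to 5xFAD was 1.29 (1.00 to 1.59), with 1.61 in CA3-score and 1.55 in dentate-score nuclei. Tmod3, a tropomodulin gene that caps actin filaments, stood at 61.7 CPM against 30.7 to 32.6. The global MAGL-KO library stood alone for these genes. Sdk1, a synaptic adhesion gene, stood at 42.7, 53.7, 112, 158 and 103 CPM and was thus higher in all 3 libraries. Ttr, a choroid plexus gene, stood at 16.9, 10.1, 18.7, 21.3 and 29.3 CPM, and Kl, another choroid plexus marker, at 14.2, 18.9, 14.1, 22.5 and 19.9. Glra3, a glycine receptor subunit gene, was higher by 0.93. Colgalt2 (-0.74) and Tor1b (-0.82) were lower.

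Of 10 endocannabinoid genes, 0 passed the fold in 5xFAD against WT. In the astrocyte comparison 3 were higher, Mgll (0.53), Daglb (0.51) and Napepld (0.61), where 7.39% of all genes were higher. Their median was 0.01 over the 10, and with size factors 1 of the 10 was higher. In the neuron comparison Mgll was higher (0.51) and the phospholipase gene Plcb4 lower (-0.60), and in the global one Plcb4 was lower (-0.56). Of all genes 7.97% were higher and 1.02% lower in the neuron comparison, and 1.66% and 0.595% in the global one. With size factors Mgll was at 0.43, 0.42 and 0.38 and so under the fold in each. Cnr1, the cannabinoid receptor, stood at 81.8, 75.5, 74.4, 84.8 and 78.2 CPM, and Dagla, which makes 2-arachidonoylglycerol, at 77.0, 87.5, 74.6, 98.1 and 92.7. The counting intervals of Cnr1 overlapped between all 5 libraries. For Dagla those of WT (70.8 to 83.5) and the astrocyte MAGL-KO library (67.6 to 82.0) lay below that of the neuron one (89.5 to 107).

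Nuclear-encoded genes of oxidative phosphorylation had a higher summed level in the astrocyte and neuron MAGL-KO libraries. The list of 23 genes summed to 615, 636, 864.5, 842 and 636 CPM. Of the 20 with enough UMIs, 9 were higher in the astrocyte comparison with a median of 0.46 (0.37 with size factors), and 6 in the neuron comparison with 0.38 (0.30), beside 7.39% and 7.97% of all genes. The others of the 20 were under the fold. In the global comparison and in 5xFAD against WT 0 passed, with medians of 0.04 and 0.02. Atp5b, a subunit of ATP synthase, stood at 33.8, 34.4, 59.4, 58.0 and 34.9 CPM, and Sdhb, a subunit of complex II, at 24.3, 26.0, 45.1, 45.7 and 32.4. Both of these libraries were above the other 3 for 21 of 23 genes in CPM. No share of all genes in that order was computed, so the count is a description. The median of all genes was itself 0.104 and 0.089 above 5xFAD in these libraries. The medians were 0.42 and 0.37 in CA3-score nuclei and 0.45 and 0.32 in dentate-score nuclei, so the difference was as large in those classes.

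Among potassium channel genes, Kcnd2, the Kv4.2 subunit of the dendritic A-type current of CA1, stood at 7190, 7789, 5192, 4775 and 6163 CPM. It was the lowest in the astrocyte and neuron MAGL-KO libraries. Its relative Kcnd3 went the other way, at 106, 81.0, 146, 127 and 118 CPM, as did the accessory subunit Kcnip3 at 66.7, 65.5, 98.2, 128 and 92.9. Dpp10, another accessory subunit, was highest in the global one, at 475, 415, 641, 495 and 770 CPM. Of 27 potassium channel genes with enough UMIs, 4 were higher and 1 lower in the astrocyte comparison, 3 and 2 in the neuron comparison, and 2 and 0 in the global one. Of all genes, 7.39%, 7.97% and 1.66% were higher and 0.837%, 1.02% and 0.595% lower in these comparisons. The kainate receptor gene Grik1 differed in sign, at 18.1 CPM in 5xFAD and 7.93, 29.5 and 41.6 in the astrocyte, neuron and global MAGL-KO libraries.

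Accessible regions that set CA1 apart from CA3-score and dentate-score nuclei were sought, and subiculum-score nuclei were not compared. The search covered 52391 regions listed in all 5 libraries with at least 20 cut sites in CA1 members of each. Of these 619, or 1.18%, held more cut sites per 1000000 in CA1 than in both CA3-score and dentate-score nuclei by at least 1 on the log2 scale in each library. Regions were admitted by CA1 cut sites alone, and only those higher in CA1 were counted. With 5 per 1000000 added to each value, regions near 20 cut sites could not reach that ratio. The share thus depends on the minimum, and at 50 cut sites it was 2.04% of 19954 regions. Of the 619, 2, or 0.323%, covered the start of a coding gene, against 21.0% of all regions examined. The region with the highest ratio, chr10:82313633-82314706 (mm10) in an intron of 4932415D10Rik, held 28.9, 30.6, 22.9, 25.3 and 26.4 cut sites per 1000000 in CA1 members of the 5 libraries. It held at most 1.24 in CA3-score nuclei. The next, chr2:130351764-130352626 in an intron of Ebf4, held 27.8, 21.8, 25.9, 20.5 and 22.8. Regions were kept by their CA1 cut sites in each library and ranked by their lowest ratio. That both were open in CA1 of each library was thus set by the selection. The third, chr9:17255520-17256484, lay in no gene, 754235 bases from the nearest coding start, that of the cadherin gene Fat3. The genes most often nearest to the 619 regions were Ndst3 with 5, Ntm with 4, and Gbe1, Man1a, Rbfox1 and Zeb2 with 3 each. Of the rule genes and the 9 further CA1 genes, Man1a had 3, and Stac, Wfs1 and Hs3st2 had 1 each. No share over all genes was computed beside these counts, so they are a description. Man1a, Stac, Wfs1 and Mpped1 are rule genes, and their RNA was used to pick these nuclei. At start sites, Mpped1 held 30.0 cut sites per 1000000 in WT members, 5.88 in CA3-score and 4.05 in dentate-score nuclei, and Spink8 held 27.2, 14.7 and 2.14. Wfs1 was open in all 3 classes, at 26.9, 21.8 and 29.4.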

How the data were processed

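The deposited files hold counts for each of 5 libraries: UMIs per gene and transposase cut sites per peak and nucleus, and per the submitters' processing notes the authors used Cell Ranger ARC 2.0.0, Seurat and mm10. The matrices list 32285 gene features. Peaks were called by the authors in each library separately, so regions were matched by overlap, and covered length can differ between libraries. Counts of members were summed per library and divided by the total to CPM. A pseudocount of 5 CPM was added, and genes with at least 100 UMIs over both libraries were compared at a fold of 0.5 on the log2 scale. No doublet caller was run. Nuclei with both Xist and Y-linked UMIs (Ddx3y, Uty, Eif2s3y, Kdm5d, chosen after the files were seen) were left out in an alternative. Members and lists were chosen with earlier results of these data known, and the sterol and fatty acid lists after values were seen. Named genes were the 8 highest and 8 lowest ratios of each comparison among genes with the same sign in Xist and Y nuclei and a CPM of at least 0.5 of that of all nuclei, and any member of the lists. The summing and ratio steps were tested on simulated data. Python 3.11.15, numpy 2.4.6, scipy 1.17.1, pandas 2.3.3 and matplotlib 3.10.9 were used. Values of some single genes are not reported here, though they remain in the list totals.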

Additional observations from a re-analysis of the deposited data

How the results depend on the processing

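No paired analysis was possible because 1 library stands for each group. The median of the sterol synthesis list for 5xFAD against WT lay between 0.876 and 1.5 over 12 other settings, Thy1 between 2.51 and 2.76 and Nr4a2 between -1.69 and -0.60. Megf11 in the neuron comparison ranged from 0.20 to 2.55 and Camk2d in the astrocyte comparison from 0.66 to 2.10. The immediate early medians ranged from -1.09 to -0.14 for 5xFAD against WT and from -0.71 to -0.31 for astrocyte MAGL-KO against 5xFAD. Without the genes named by the rule of size, an alternative chosen after seeing the data like the comparisons with WT, the sterol median was 0.89. Of 1912 single-gene and list values under other settings 1707 moved little, 200 moved and 5 changed sign. The 5 were Angpt1 in 5xFAD against WT (0.276 at a CA1 score of 0.75, 0.844 at 1.5 and 0.602 without members that reached a CA3 or subiculum score of 1), Col23a1 in the astrocyte comparison (-0.368 at 1.5) and Ttr in the global one (-0.203 at 1.5). The cause was not tested. At a score of 0.75 the CA1 share was 9.74% in WT, 9.11% in 5xFAD and 8.66%, 9.18% and 9.06% in the astrocyte, neuron and global MAGL-KO libraries, and at 1.5 it was 1.45%, 1.23%, 1.14%, 1.42% and 1.21%. Without nuclei that held both Xist and Y-linked UMIs it was 5.42% in WT, 4.64% in 5xFAD and 4.49% in the global one, and without members that reached a CA3 or subiculum score it was 4.19% in the astrocyte one. Genes past the fold numbered 177, 717, 759 and 197 in the 5xFAD, astrocyte, neuron and global comparisons. A pseudocount of 1 CPM gave 368, 1156, 1161 and 375, and a minimum of 500 UMIs gave 46, 142, 147 and 54. A minimum of 10 UMIs gave 1157 in the astrocyte, 1314 in the neuron and 334 in the global comparison. Xist nuclei alone gave 690, 1381, 1309 and 735. Y nuclei alone gave 563 in the 5xFAD, 1908 in the neuron and 478 in the global comparison. A score of 1.5 gave 278 in the astrocyte and 314 in the neuron comparison. Thinning to 5000 UMIs per nucleus gave 953, 1471, 1632 and 899, and it and the splits by sex have fewer counts behind each gene. With at least 50 cut sites, an alternative chosen after seeing the data, 408 CA1 regions were found against 619. Depth limits genes under about 100 UMIs.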
